A study of Mus musculus with 8 samples.

Results

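The collagen genes were taken as every gene in the deposited count table whose symbol consists of Col, a number, a and a number. The rule found 44 genes among 49671, from Col1a1 to Col28a1, and 40 of them carried enough reads to be tested. Whole back skin, shaved, was taken from mice aged 8 weeks, and the Flg genotype ko/ko (knockout, 4 libraries) was set against the genotype wt/wt (wild type, 4 libraries). Flg encodes profilaggrin, the precursor of filaggrin in the cornified layer of the epidermis. The labels name no other allele, agent or treatment, and they leave out which Flg allele was used, the strain and the sex. Whether each library came from a separate mouse is not stated outright, so p-values measure the spread between these samples, which may be technical.

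Collagens are proteins of 3 chains that wind into a triple helix built on glycine-rich repeats. In dermis, fibroblasts secrete the fibrillar types I, III and V, which assemble into the fibres that give skin its tensile strength, and FACIT collagens attach along the surface of those fibrils. Type IV forms the sheet of basement membranes, types XVII and VII anchor basal keratinocytes to the dermis below, type VI forms beaded filaments around cells, and types II, IX, X and XI are best known from cartilage.

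Library totals lay between 18483242 and 38545957 counts in knockout and between 23817186 and 34263154 counts in wild type, over 49671 genes. Flg itself had 27.0, 24.7, 24.1 and 22.3 CPM (counts per 1000000, scaled for library composition) in knockout replicates 1 to 4, against 66.9, 46.5, 56.1 and 66.6 CPM in wild-type replicates 1 to 4. The groups did not overlap, and the log2 fold change of Flg was -1.27 ± 0.12 (SE, n = 4 per group, edgeR adjusted p = 0.00326). Across all genes, 19099 were tested and 270 were called at an adjusted p under 0.05, 136 of them higher and 134 lower in knockout. The tissue was not separated, so fewer cells of a type and less RNA per cell cannot be told apart in any value below.

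Collagen transcripts made up 3.45%, 2.75%, 3.72% and 3.275% of all counts in knockout replicates 1 to 4. In wild-type replicates 1 to 4 the shares were 3.97%, 2.16%, 4.002% and 3.36%. Wild-type replicate 2 was the lowest of all 8 libraries and wild-type replicate 3 the highest, and the knockout libraries lay between them. The mean share was 3.30 ± 0.407% in knockout and 3.37 ± 0.862% in wild type (SD, n = 4 each; two-sided exact permutation p = 0.857, where 0.0286 is the smallest that 4 against 4 libraries allow). Counting error is small beside that spread, since the 95% Wilson interval of the share in wild-type replicate 2 ran from 2.15% to 2.16%. Col1a1, Col1a2 and Col3a1 together held between 76.1% and 82.7% of collagen counts in knockout and between 80.0% and 82.1% in wild type.

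Levels per length differed widely among the collagens. On the scale of CPM per kilobase of exon length, Col3a1 had a level of 1053 in knockout and 1086 in wild type, and Col1a1 had 1012 in knockout and 1099 in wild type. Neither gene exceeded the other in more than 4 of 8 libraries. Col1a2 came next with a level of 750 in knockout and 766 in wild type, below Col1a1 in 8 of 8 libraries. Col17a1, the transmembrane collagen of hemidesmosomes, was the most abundant collagen outside the fibrillar class, with a level of 174 per kilobase in knockout and 177 in wild type. It exceeded Col6a1, at 149 per kilobase in knockout and 129 in wild type, in 7 of 8 libraries. At the low end, 6 of 44 genes stayed under 1 CPM in every library (Col2a1, Col6a4, Col9a1, Col9a2, Col10a1 and Col19a1), and of these the cartilage genes Col2a1, Col9a1, Col9a2 and Col10a1 did not pass the filter on low counts. Their raw counts ranged from 2 to 15 in knockout libraries and from 3 to 26 in wild-type libraries.

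**Figure D1:**
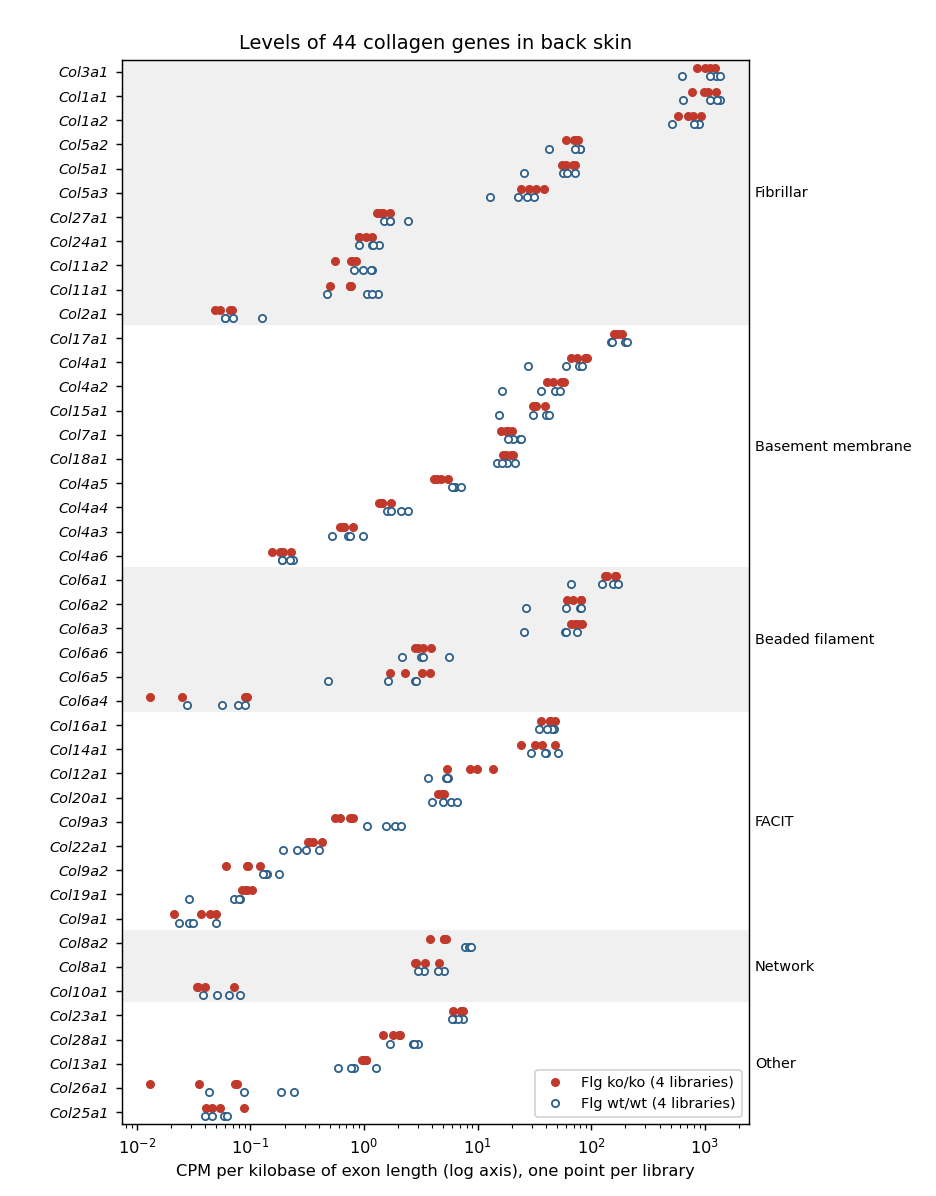
CPM per kilobase of exon length (log axis) of all 44 collagen genes, one point per library, filled for the 4 Flg ko/ko libraries and open for the 4 wt/wt libraries. Col3a1, Col1a1 and Col1a2 sit above all other genes, and an open point of wild-type replicate 2 lies to the left of the other wild-type points in many fibrillar, basement membrane and beaded filament genes.

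Across the comparison of knockout with wild type, 2 of 40 tested collagen genes were called, Col8a2 and Col9a3, and both fell. They make 5.0% of the tested collagens, where 1.41% of all tested genes were called in either direction and 0.702% were called lower in knockout. The share rests on 2 genes. No collagen gene was called higher by edgeR, where 0.712% of all tested genes were. At an unadjusted p under 0.05 in edgeR, 1 collagen gene was higher and 8 were lower, where 8.64% of all tested genes were higher and 10.9% lower. DESeq2 called 1 collagen higher and 3 lower, beside 3.12% and 3.09% of all genes. Limma voom called 0 higher and 4 lower, beside 6.15% and 7.13% of all genes, so the collagens' share of lower calls was close to the background there. The median log2 fold change of the 40 collagens was -0.04, with 18 above and 22 below 0, beside a median of -0.02 for all tested genes. CPM values of the groups did not overlap in 4 of the tested collagens, with Col19a1 higher and Col4a5, Col8a2 and Col9a3 lower in knockout. Non-overlap was seen in 11.5% of all tested genes, 5.57% higher and 5.95% lower, which is near the share among collagens. The untested Col9a2 was also apart, lower in knockout.

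**Figure D2:**
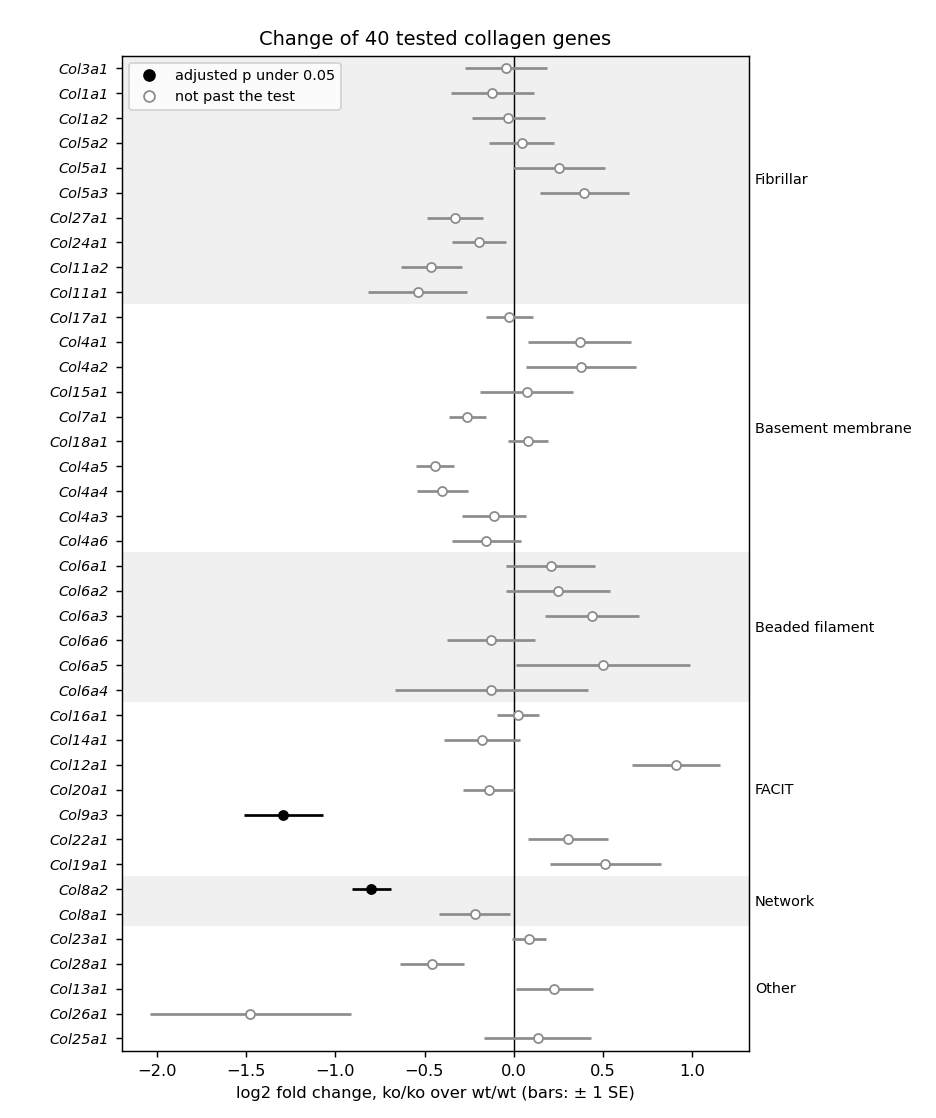
Log2 fold change (knockout over wild type, x axis) of the 40 tested collagen genes by structural class, with bars of 1 SE either side. The 2 filled points past the edgeR threshold are Col9a3 at -1.29 and Col8a2 at -0.80, while the abundant genes Col3a1, Col1a1 and Col1a2 lie close to 0.

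The sequence before the start of Col8a2, the gene with the smallest p among the collagens, is shown beside that of Col3a1, which had the highest mean level per length over the 8 libraries, since the pair differ in base composition and in promoter motifs. Both come from RefSeq promoters on build GRCm38.p6 (mm10), plus strand, at chr4:126286544-126286792 and chr1:45311288-45311537, and end at the base before the annotated gene start. Capitals mark GGGCGG (the GC box), CCAAT and TATAAA on either strand, and neighbouring GC boxes in Col8a2 overlap.
Col8a2: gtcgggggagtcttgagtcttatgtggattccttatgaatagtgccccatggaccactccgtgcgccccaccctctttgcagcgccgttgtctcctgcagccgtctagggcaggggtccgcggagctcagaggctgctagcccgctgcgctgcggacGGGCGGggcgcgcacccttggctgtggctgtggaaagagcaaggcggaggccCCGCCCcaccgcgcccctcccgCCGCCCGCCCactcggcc
Col3a1: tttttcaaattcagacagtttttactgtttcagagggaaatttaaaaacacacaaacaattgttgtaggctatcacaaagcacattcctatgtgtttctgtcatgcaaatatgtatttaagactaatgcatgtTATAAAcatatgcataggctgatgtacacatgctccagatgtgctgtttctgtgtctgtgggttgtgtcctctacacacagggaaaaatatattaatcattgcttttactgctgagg
The Col8a2 stretch was 69.9% G or C and held 4 GC boxes, and the Col3a1 stretch was 35.2% G or C and held none, with 1 TATAAA match. Of 38 promoter windows of 250 bases found for 35 collagen genes, 22 held GGGCGG (57.9%), against 32.7% of all 32851 windows. CCAAT was found in 34.2% of the collagen windows and 33.8% of all windows, and TATAAA in 13.2% and 12.4%. These matches describe letters only.

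Col8a2 (chr4:126286793-126314330, plus strand) encodes a chain of type VIII collagen, a short network-forming collagen known from the membrane below the corneal endothelium and from vessel walls. Its level was 17.1, 22.7, 22.9 and 23.4 CPM in knockout replicates 1 to 4 and 38.2, 34.9, 37.3 and 39.0 CPM in wild-type replicates 1 to 4. Each of the 4 knockout libraries lay below each of the 4 wild-type libraries. The mean was 21.5 ± 2.99 CPM in knockout and 37.4 ± 1.79 CPM in wild type (SD, n = 4 each), so that knockout held 57.6% of the wild-type level. The log2 fold change was -0.80 ± 0.11 (SE, edgeR adjusted p = 0.0151), between -0.84 and -0.70 over 16 alternatives with adjusted p between 6.02e-08 and 0.143. The call ended without knockout replicate 2 (adjusted p = 0.0631), without knockout replicate 4 (0.0565) and with an adipocyte marker covariate (0.143).

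The partner chain gene Col8a1 did not pass the test, with 23.2, 14.5, 17.6 and 14.4 CPM in knockout and 17.2, 15.3, 26.0 and 23.0 CPM in wild type. The groups overlapped and the log2 fold change was -0.22 ± 0.20 (SE, adjusted p = 0.572). The log2 ratio of Col8a1 to Col8a2 per length was -0.51 ± 0.529 in knockout and -1.09 ± 0.318 in wild type (SD, n = 4 each; exact permutation p = 0.114, adjusted p = 0.428 over 10 chain ratios). The remaining member of the network class, Col10a1, a collagen of hypertrophic cartilage, had 2 to 6 counts in knockout libraries and 3 to 7 in wild-type libraries and was not tested.

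Among the FACIT collagens, 7 of 9 genes were tested and Col9a3 was called, with a class median of 0.02. Col9a3 (chr2:180597790-180622189, plus strand) encodes a chain of type IX collagen, which coats type II fibrils of cartilage. It had 2.13, 2.36, 3.08 and 2.88 CPM in knockout and 7.19, 4.11, 6.07 and 8.15 CPM in wild type. The highest knockout library lay below wild-type replicate 2, the lowest of its group. The mean was 2.61 ± 0.443 CPM in knockout and 6.38 ± 1.74 CPM in wild type (SD, n = 4 each), a log2 fold change of -1.29 ± 0.22 (SE, edgeR adjusted p = 0.0284). Over the alternatives it stayed between -1.45 and -1.16, with adjusted p between 1.63e-05 and 0.238. The call ended without knockout replicate 1 (adjusted p = 0.0800), 2 (0.113) or 4 (0.103), without wild-type replicate 1 (0.0740) or 4 (0.0698), and with the adipocyte covariate (0.238).

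The other chains of type IX were close to the floor of the assay. Col9a1 had 2 to 7 counts in knockout libraries and 3 to 6 in wild-type libraries, and Col9a2 had 5 to 11 counts in knockout libraries and 10 to 19 in wild-type libraries. Per kilobase, Col9a3 stood at 0.678 CPM in knockout and 1.66 CPM in wild type, and Col9a2 at 0.0923 CPM in knockout and 0.145 CPM in wild type. Exons of Col9a3 share 234 bases with Tcfl5, a transcription factor gene on the opposite strand, and the strand setting of the counting is not given in the sources used here, so that reads in those bases cannot be told apart. Tcfl5 had 18, 9, 27 and 21 counts in knockout and 48, 25, 45 and 39 counts in wild type (log2 fold change -1.02 ± 0.32, adjusted p = 0.124).

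Markers of cartilage cells were set beside these cartilage collagens. Of 14 chondrocyte markers, 6 stayed under 1 CPM in every library, among them the cartilage proteoglycan gene Acan with 1 to 10 counts in knockout libraries and 1 to 9 in wild-type libraries, and Ucma had 0 counts in all 8. Matn1, another of the 6, had 15, 7, 5 and 7 counts in knockout and 1, 0, 0 and 0 in wild type. Snorc went the other way, with 0, 1, 0 and 0 counts in knockout and 7, 2, 1 and 2 in wild type. Neither was tested. The summed level of the list was 146 to 163 CPM in knockout and 140 to 255 CPM in wild type. Its most abundant gene, Sox9, which skin appendages also express, had a log2 fold change of -0.94 (adjusted p = 0.0949). Matn4 was called lower at -0.76 (adjusted p = 0.0483) and Sox5 was called higher at 0.92 (adjusted p = 0.0151). Summed Schwann cell markers lay between 598 and 795 CPM in knockout and between 474 and 943 CPM in wild type. Of these 10 genes 8 lay below 0 and 2 above, with a median of -0.25, and 0 were called. Melanocyte markers lay between 120 and 206 CPM in knockout and between 131 and 202 CPM in wild type. Knockout replicate 1 had the 206 CPM, and the other knockout libraries had 120 to 139 CPM. Of the 8 melanocyte markers, 6 lay below 0 and 2 above. Mlana was called lower at -1.83 (edgeR adjusted p = 0.0231), and Mitf at -0.32 was lower with the groups apart but not called (adjusted p = 0.0967). The part of these cell types in the Col9a3 result was not tested.

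Col12a1, a FACIT collagen of fibril surfaces in tendon and dermis, had the largest positive log2 fold change of the tested collagens and did not pass the test. It reached 206, 149, 82.5 and 129 CPM in knockout, against 80.4, 55.5, 84.1 and 81.7 CPM in wild type. Knockout replicates 1, 2 and 4 lay above every wild-type library, and knockout replicate 3 fell within the wild-type range. The log2 fold change was 0.91 ± 0.25 (SE, adjusted p = 0.101). It was 1.10 with an adjusted p of 0.0358 without knockout replicate 3 and 0.33 with the adipocyte covariate, and DESeq2 called it (0.00505), within a range of 0.00505 to 0.798 over the alternatives.

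**Figure D3:**
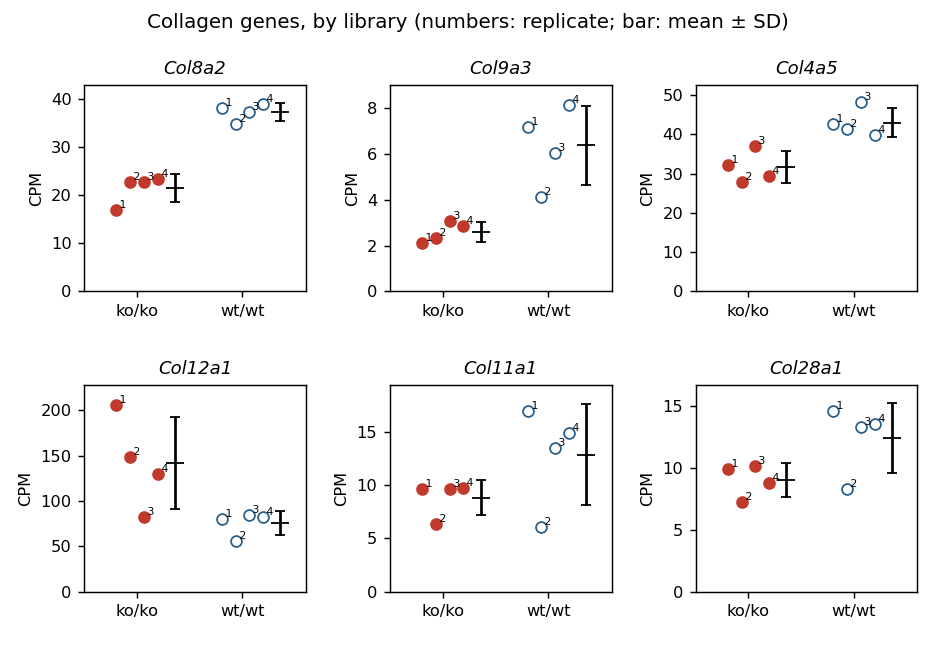
CPM by library for Col8a2, Col9a3, Col4a5, Col12a1, Col11a1 and Col28a1, with knockout points filled, wild-type points open, the replicate number beside each point and the mean ± SD as a bar. The groups are apart for Col8a2, Col9a3 and Col4a5, and a single library of either group closes the gap for Col12a1 (knockout replicate 3 at 82.5) and Col28a1 (wild-type replicate 2 at 8.30).

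The most abundant FACIT gene, Col16a1, had 293, 242, 324 and 292 CPM in knockout and 319, 233, 307 and 273 CPM in wild type. The groups overlapped and the log2 fold change was 0.02 ± 0.12. Col14a1, which regulates fibril diameter in dermis, was nearly as abundant and stood at -0.18 ± 0.21. Col19a1 was measured at 0.632, 0.642, 0.583 and 0.711 CPM in knockout and 0.491, 0.553, 0.548 and 0.198 CPM in wild type. The groups were apart, but raw counts were between 12 and 24 in knockout and between 5 and 17 in wild type, and the difference of 0.51 ± 0.31 did not pass (adjusted p = 0.390). Col20a1 and Col22a1 stood at -0.14 and 0.30, with adjusted p of 0.620 and 0.484.

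Of the fibrillar collagens, 10 of 11 were tested and 0 were called, with 3 above and 7 below 0 and a median log2 fold change of -0.08. At an unadjusted p under 0.05 edgeR gave 1 of them, Col11a2, which was lower, and DESeq2 and limma voom called no fibrillar gene. Col3a1 (chr1:45311538-45349706, plus strand), the chain of type III collagen, was at 10948, 8384, 12063 and 9943 CPM in knockout and 12265, 6149, 13331 and 10882 CPM in wild type. Wild-type replicate 2 was the lowest and wild-type replicate 3 the highest, with all knockout libraries between them. The log2 fold change was -0.04 ± 0.23. Col1a1 and Col1a2, the chains of type I collagen, stood at -0.12 ± 0.23 and -0.03 ± 0.21.

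Type V collagen, which starts and limits type I fibrils, is encoded by 3 tested genes. Col5a1, Col5a2 and Col5a3 stood at 0.25 ± 0.26, 0.04 ± 0.18 and 0.39 ± 0.25 on the log2 scale, and none passed. For Col5a1, knockout libraries lay between 469 and 608 CPM, against 219 CPM in wild-type replicate 2 and 481 to 607 CPM in the other wild-type libraries.

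The minor fibrillar genes were at the lower end of the class and all stood below 0. Col11a1, a cartilage chain of type XI, had 9.58, 6.37, 9.58 and 9.69 CPM in knockout and 16.96, 6.05, 13.4 and 14.8 CPM in wild type. Wild-type replicates 1, 3 and 4 exceeded every knockout library and wild-type replicate 2 was below them all. The log2 fold change was -0.54 ± 0.28 (adjusted p = 0.314), and without wild-type replicate 2 it was -0.77 (adjusted p = 0.0388, with 0.0388 to 0.588 over the alternatives). Its partner chain Col11a2 had 5.39, 3.80, 5.83 and 5.24 CPM in knockout and 7.94, 5.57, 7.84 and 6.65 CPM in wild type, a log2 fold change of -0.46 ± 0.17 (adjusted p = 0.179). Col27a1, made in cartilage and some epithelia, had 16.9, 18.1, 19.0 and 22.1 CPM in knockout and 31.9, 19.4, 22.2 and 22.0 CPM in wild type (-0.33 ± 0.15, adjusted p = 0.275). Both genes overlapped between the groups. Of the 7 cartilage collagens, 3 were tested and all 3 lay below 0, with a median of -0.54 and Col9a3 the called member.

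The basement membrane class held type IV chains, the anchoring genes Col7a1 and Col17a1, and the vessel and basement membrane collagens Col15a1 and Col18a1. All 10 were tested and 0 were called by edgeR, with 4 above and 6 below 0 and a median of -0.07. At an unadjusted p under 0.05 Col4a4, Col4a5 and Col7a1 were lower, and both DESeq2 and limma voom called Col4a5. Col17a1, the anchor of basal keratinocytes, had 1073, 977, 908 and 1062 CPM in knockout and 865, 1152, 1200 and 873 CPM in wild type. The knockout libraries lay within the wild-type range (-0.02 ± 0.13). Col7a1, whose protein forms the anchoring fibrils below the epidermis, had 182, 167, 190 and 206 CPM in knockout and 244, 212, 246 and 190 CPM in wild type. Wild-type replicate 4 fell among the knockout libraries, and the log2 fold change of -0.26 ± 0.10 did not pass (adjusted p = 0.208).

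The type IV genes lie in head-to-head pairs, and the members of a pair could differ in level per length. Col4a1 and Col4a2, the chains of nearly all basement membranes, overlap by 22 bases on opposite strands of chromosome 8 and stood at 0.37 ± 0.29 and 0.38 ± 0.31. Their ratio per length was the steadiest of the 10 examined, at 0.70 ± 0.0134 log2 in knockout and 0.72 ± 0.0472 log2 in wild type (SD, n = 4 each; exact permutation p = 0.514). Col4a1 was at 661, 563, 493 and 687 CPM in knockout and at 585, 208, 621 and 444 CPM in wild type, where replicate 2 was far below the others.

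Col4a5, whose chain joins those of Col4a3 and Col4a4 or of Col4a6, had 32.2, 27.8, 37.2 and 29.4 CPM in knockout and 42.6, 41.4, 48.2 and 39.8 CPM in wild type. Every knockout library was below every wild-type library. The log2 fold change was -0.44 ± 0.11 (SE, edgeR adjusted p = 0.0691), past the threshold with no filter on low counts (0.0388), with DESeq2 (0.0116) and with limma voom (0.0184), in a range of 0.0116 to 0.283. Its neighbour Col4a6, 1308 bases away, was near the floor at 1.24 to 1.82 CPM in knockout and 1.502 to 1.90 CPM in wild type and stood at -0.15 ± 0.19. Col4a4 had 15.3, 15.4, 18.3 and 14.3 CPM in knockout and 16.8, 25.6, 22.6 and 18.5 CPM in wild type (-0.40 ± 0.14, adjusted p = 0.168), with overlap at wild-type replicate 1. Col4a3, 71 bases from it, stood at -0.11 ± 0.18.

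**Figure D4:**
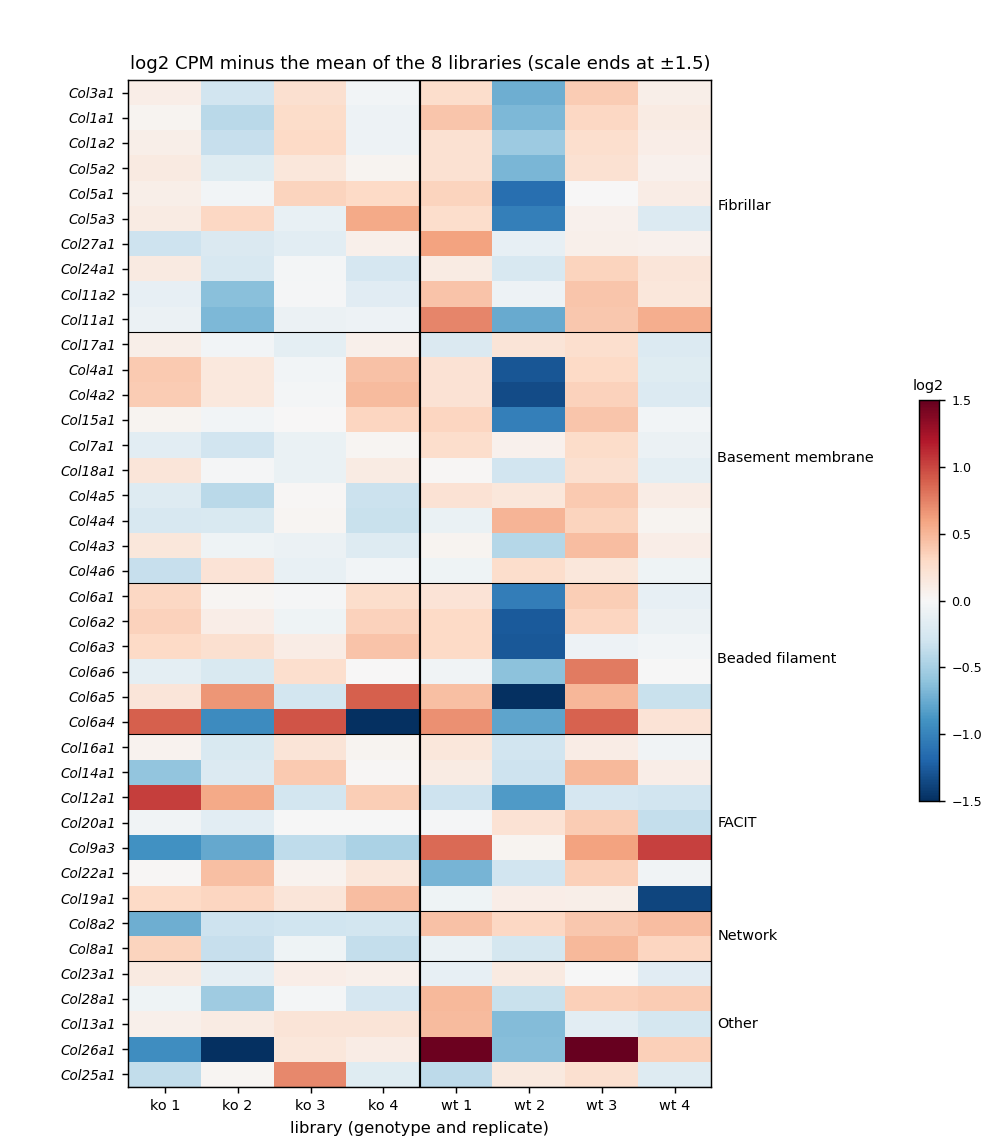
Each cell gives log2 CPM minus the mean of the 8 libraries for 1 of 40 tested collagen genes (rows, by class) in 1 library (columns, knockout left of wild type). Red is above and blue below the mean, and colours end at a log2 difference of 1.5 either way. The column of wild-type replicate 2 is blue through types I, III, V, VI and XV and through Col4a1 and Col4a2, and the Col9a3 and Col8a2 rows are blue in knockout.

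Type VI genes encode chains of filaments that lie between cells and the fibrillar matrix. All 6 were tested and 0 were called or reached an unadjusted p under 0.05 by edgeR, nor were any called by DESeq2 or limma voom, with 4 above and 2 below 0 and a median of 0.23. Col6a1 had 728, 599, 584 and 705 CPM in knockout and 681, 288, 759 and 540 CPM in wild type (0.21 ± 0.25). Col6a2, next to it on chromosome 10, had 680, 575, 510 and 677 CPM in knockout and 660, 223, 671 and 504 CPM in wild type (0.25 ± 0.29). Col6a3 had 906, 867, 797 and 993 CPM in knockout and 904, 306, 700 and 715 CPM in wild type (0.44 ± 0.26, adjusted p = 0.387). In all 3 genes the lowest of the 8 values was that of wild-type replicate 2. Without that library the log2 fold changes of Col6a1, Col6a2 and Col6a3 were -0.01, -0.0011 and 0.21. Col6a5, 1 of 3 related genes in a row on chromosome 9, had 21.8, 30.5, 15.8 and 35.9 CPM in knockout and 26.2, 4.55, 27.1 and 15.3 CPM in wild type (0.50 ± 0.49). Its neighbours Col6a6 and Col6a4 stood at -0.13 ± 0.25 and -0.13 ± 0.54.

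The remaining class held membrane-spanning and minor collagens, of which 5 of 5 were tested and 0 were called by edgeR. Col26a1 and Col28a1 were lower at an unadjusted p under 0.05, limma voom called Col28a1 and DESeq2 called none. Col23a1, a membrane collagen of epithelia, had 42.3, 34.95, 41.1 and 40.7 CPM in knockout and 35.3, 42.3, 38.4 and 34.2 CPM in wild type. The groups overlapped (0.08 ± 0.10). Col28a1, known from Schwann cell basement membranes, had 9.95, 7.23, 10.2 and 8.75 CPM in knockout and 14.6, 8.30, 13.3 and 13.5 CPM in wild type. Only wild-type replicate 2 fell among the knockout values (-0.46 ± 0.18, adjusted p = 0.204), and without it the log2 fold change was -0.61 (adjusted p = 0.0480, with 0.0311 to 0.472 over the alternatives). Col13a1, a membrane collagen of the neuromuscular junction, had 4.45, 4.60, 4.83 and 4.83 CPM in knockout and 5.86, 2.69, 3.79 and 3.52 CPM in wild type (0.23 ± 0.22). Col26a1, at 0.107 to 0.625 CPM in knockout and 0.356 to 1.98 CPM in wild type, stood at -1.48 ± 0.56 (adjusted p = 0.193) on raw counts of 2 to 16 in knockout and 9 to 53 in wild type.

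Wild-type replicate 2 stood apart in the collagens. It was the lowest of 8 libraries in 20 of 40 tested collagens, where it was the lowest in 16.8% of all tested genes, and its median log2 difference from the other wild-type libraries was -0.62 over collagens and -0.01 over all genes. Wild-type replicate 3 was the highest of 8 in 15 of 40 collagens, where it was the highest in 15.9% of all genes. The summed level of type VI genes was 1943 to 2442 CPM in knockout, against 841 CPM in wild-type replicate 2 and 1805 to 2301 CPM in the other wild-type libraries. Not every collagen was low in that library, where Col4a4 had its highest value of the 8 and Col17a1 more than in any knockout library. Fibroblast markers summed to 6483 to 7488 CPM in knockout and to 7574 CPM in wild-type replicate 2, the highest of the 8 libraries. Most of that sum was Dcn at 4114 CPM and Lum at 1476 CPM, proteoglycan genes that with Dpp4 were highest in that library, while Pdgfra, Fbln1, Fbn1 and Crabp1, 4 of the 13 markers, were lowest there. Endothelial markers summed to 555 to 647 CPM in knockout, against 346 CPM in that library and 505 to 600 CPM in the other wild-type libraries. Of these 10 genes 3 lay above 0, 7 below, and 0 were called. Lyve1 was higher in knockout with the groups apart, averaging 210 CPM in knockout and 74.0 CPM in wild type. Egfl7 and Cldn5 were lower with the groups apart (-0.52 and -0.58).

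With wild-type replicate 2 left out, 4 collagens were called lower (Col8a2, Col9a3, Col11a1 and Col28a1) and 0 higher by edgeR, where 1.63% of all tested genes were called lower and 0.97% higher. In that fit 28 of 42 collagens lay below 0, with a median of -0.17. Without wild-type replicate 3 the calls were 2 lower and 0 higher, with a median of 0.07, where 3.32% and 3.49% of all genes were called. White adipocyte markers summed to 6696 to 8621 CPM in knockout, against 8437 CPM in wild-type replicate 3 and 4695 to 5514 CPM in the other wild-type libraries, and 14 of 16 had a log2 fold change above 0. With their mean as a covariate 33 of 40 collagens lay below 0 with a median of -0.33, beside a median of -0.00 for all genes. No gene of any kind, Flg included, was called by edgeR (1009 genes higher and 1283 lower at an unadjusted p under 0.05, among them 0 and 6 collagens). Every knockout library exceeded wild-type replicates 1, 2 and 4 in the marker sum. The covariate was the mean log2 CPM of the markers rather than that sum. With 14 of 16 markers above 0, this fit cannot fully separate genotype from adipocyte content. With the covariate the SE of Col12a1 went from 0.25 to 0.38 and that of Col11a1 from 0.28 to 0.44. Over all alternatives, this fit among them, Col8a2 stayed between -0.84 and -0.70 and Col9a3 between -1.45 and -1.16.

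None of the 10 ratios between chains of a molecule or fibril passed a test of difference between the genotypes (two-sided exact permutation p between 0.114 and 1, adjusted p between 0.428 and 1). The Col1a1 to Col1a2 ratio per length was 0.43 ± 0.0237 log2 in knockout and 0.50 ± 0.131 log2 in wild type (SD, n = 4 each). The Col5a1 to Col5a2 ratio was -0.14 ± 0.122 in knockout and -0.40 ± 0.259 in wild type, and the Col6a3 to Col6a1 ratio -1.002 ± 0.0949 in knockout and -1.25 ± 0.258 in wild type. On chromosome 2, Col9a3 at a log2 fold change of -1.29 lies 364345 bases from Col20a1 at -0.14, which did not pass the test. The ratio of Col4a3 to Col4a4 was -1.12 ± 0.212 in knockout and -1.42 ± 0.524 in wild type.

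Genes that make, cut and bind collagen were read from 6 lists. In the list of folding and modification enzymes, 1 of 21 tested genes rose and 0 fell, where 0.712% of all tested genes were called higher and 0.702% lower. The list had 17 genes above 0 and a median of 0.16, beside 8918 of 19099 genes above 0 and a median of -0.02 over all genes. Its summed level was 2149 to 2512 CPM in knockout, against 1514 CPM in wild-type replicate 2 and 1917 to 2456 CPM in the other wild-type libraries. The part of wild-type replicate 2 in the list median was not tested. The riser was P4ha3, a catalytic subunit of the collagen prolyl hydroxylases, at 4.89, 5.46, 6.21 and 5.35 CPM in knockout and 1.79, 1.78, 1.31 and 3.44 CPM in wild type. The groups did not overlap and the log2 fold change was 1.39 ± 0.26 (adjusted p = 0.0366). Its relative P4ha2 stood at 0.47 ± 0.13 (adjusted p = 0.0966), also with the groups apart. Of 12 tested genes of procollagen processing and cross-linking, Tll1, a tolloid protease that trims procollagen, rose. It had 14.4, 23.9, 21.4 and 21.3 CPM in knockout and 12.2, 11.2, 10.2 and 13.3 CPM in wild type (0.78 ± 0.16, adjusted p = 0.0440), and 11 of the 12 lay above 0. That list summed to 1491.5 to 1790.7 CPM in knockout, against 1210.3 CPM in wild-type replicate 2 and 1610.3 to 1715.5 CPM in the other wild-type libraries. The P4ha3 call ended when any 1 of the 4 knockout replicates or wild-type replicate 1 was left out, and with the adipocyte covariate (adjusted p between 2.35e-05 and 0.119 over the alternatives). The Tll1 call ended without knockout replicate 2, 3 or 4, without wild-type replicate 1, 2 or 4 and with the covariate (adjusted p between 0.000278 and 0.197). The cross-linking oxidase gene Loxl4 stood at 0.39 ± 0.15 (adjusted p = 0.204). The more abundant oxidase gene Lox was the 1 gene of its list below 0, at -0.40 ± 0.18 (edgeR adjusted p = 0.253). Lox averaged 176 CPM in knockout and 231 CPM in wild type.

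Among collagen-degrading enzymes, 2 of 9 fell, where 0.702% of all tested genes were called lower, and the list median was -0.50, beside -0.02 over all genes. Mmp14, a membrane-bound collagenase, had 185, 196, 256 and 211 CPM in knockout and 401, 294, 402 and 334 CPM in wild type (-0.75 ± 0.13, adjusted p = 0.0284). Mmp11, stromelysin-3, had 8.10, 6.96, 7.497 and 7.48 CPM in knockout and 110, 23.1, 75.5 and 84.1 CPM in wild type (-3.28 ± 0.42, adjusted p = 0.0154). Mmp11 is not known for cutting fibrillar collagen. In both genes the groups were apart, and wild-type replicate 2 was the closest to knockout. The remaining 7 did not pass, and the groups were apart in both directions among them. Ctsk was lower at -1.04 (adjusted p = 0.0562). Pepd was higher at 0.34 (adjusted p = 0.0564), as was Mmp8 at 0.84 (adjusted p = 0.124) on 7 to 22 counts. Of the 9 genes, 4 lay above 0 and 5 below. The Mmp11 call ended without knockout replicate 1, 2 or 4 and with the adipocyte covariate (adjusted p between 2.33e-10 and 0.0966 over the alternatives). The Mmp14 call ended without knockout replicate 1, 2 or 4, without wild-type replicate 1 or 4 and with the covariate (adjusted p between 3.17e-05 and 0.170).

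**Figure D5:**
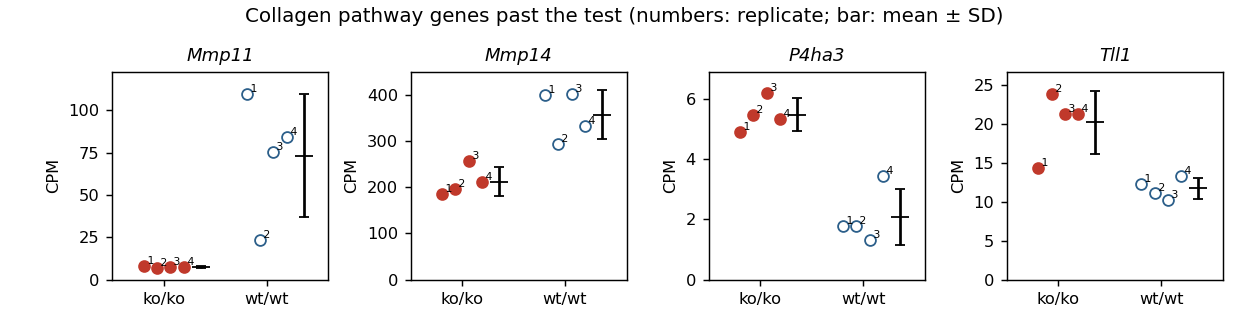
CPM by library for the 4 collagen pathway genes past the edgeR threshold, with knockout points filled, wild-type points open, the replicate number beside each point and the mean ± SD as a bar. For Mmp11 and Mmp14 all knockout points lie below all wild-type points, and for P4ha3 and Tll1 they lie above.

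Binding partners did not pass by edgeR. None of 14 fibril-associated proteoglycans and glycoproteins was called, with a median of -0.06. The keratocan gene Kera, a keratan sulfate proteoglycan of fibrils, stood at -0.56 ± 0.15 (adjusted p = 0.0953) and the osteoglycin gene Ogn at 0.51 ± 0.21 (adjusted p = 0.224). Ogn had 513 to 628 CPM in knockout, against 624 CPM in wild-type replicate 2 and 301 to 358 CPM in the other wild-type libraries, and without that library it was called at 0.82 (adjusted p = 0.00481, with 0.00481 to 0.467 over the alternatives). Of 9 tested collagen receptors 0 were called, with the integrin gene Itga1 at 0.45 ± 0.15 and the receptor kinase gene Ddr1 at -0.19 ± 0.08. Of 21 laminins and basement membrane partners 0 were called, with a median of 0.15 and the laminin genes Lama4 at 0.46 ± 0.13 and Lamb2 at 0.37 ± 0.12. These 21 genes summed to 4922 to 5867 CPM in knockout, against 4191 CPM in wild-type replicate 2 and 4385 to 5390 CPM in the other wild-type libraries. Without wild-type replicate 3, Kera, Itga1, Lama4 and Lamb2 were called in the same directions, with adjusted p between 0.00596 and 0.0259, in a fit that called 3.49% of all genes higher and 3.32% lower. With the adipocyte covariate Kera was -0.19, Itga1 0.0596, Lama4 0.11 and Lamb2 0.0444, and over all alternatives the adjusted p of these 4 genes ran from 0.00596 to 0.94. Of the 86 tested genes of the 6 lists together, edgeR called 2 higher and 2 lower, beside 0.712% and 0.702% of all genes. At an unadjusted p under 0.05, 16 were higher and 9 lower, beside 8.64% and 10.9% of all genes. DESeq2 called 5 higher and 5 lower, beside 3.12% and 3.09% of all genes, and limma voom 13 higher and 7 lower, beside 6.15% and 7.13%.

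Summed markers of cells that make collagens overlapped between the genotypes in most cases. Basal keratinocyte markers, a list that includes Col17a1, lay between 8201 and 9174 CPM in knockout and between 8944 and 10076 CPM in wild type. Of the 9 genes, 7 lay below 0, 2 above, and 0 were called. Krt5 was lower in knockout with the groups apart (-0.21, edgeR adjusted p = 0.304). Dst stood at 0.36, with 2066 CPM in knockout replicate 1 and 1027 to 1425 CPM in the other libraries. Dermal papilla markers lay between 176 and 185 CPM in knockout and between 150 and 206 CPM in wild type. Skeletal muscle markers lay between 20535 and 24995 CPM in knockout and between 15723 and 22665 CPM in wild type. Of the 11 tested muscle markers 8 lay above 0 and 3 below, and Tnnt1 was called lower at -1.52 (edgeR adjusted p = 0.0406). Hair matrix and shaft markers lay between 20.4 and 72.1 CPM in knockout and between 18.3 and 40.8 CPM in wild type. The 72.1 CPM was knockout replicate 4 alone, and the other knockout libraries had 20.4 to 23.8 CPM. Krt25, Krt27 and Krt71 had 364, 182 and 614 counts in that replicate, against 1 to 8, 5 to 22 and 5 to 31 in the other libraries. Fibroblast markers in wild type ranged from 5831 to 7574 CPM, around the knockout range. Of these 13 genes 6 lay above 0, 7 below, and 0 were called. Pdgfra was higher in knockout with the groups apart (0.60, edgeR adjusted p = 0.0502). The groups were apart for smooth muscle and pericyte markers, at 1652 to 1914 CPM in knockout and 1353 to 1591 CPM in wild type. Of these 10 genes 8 lay above 0, 2 below, and 0 were called. Acta2, Myh11 and Cnn1 were higher with the groups apart (0.48, 0.77 and 0.48). Des, the most abundant, overlapped (969 CPM in knockout and 900 CPM in wild type on average), as did Rgs5, Cspg4 and Kcnj8 (0.01, 0.05 and -0.22). The groups were also apart for sebaceous gland markers, at 5072 to 9166 CPM in knockout and 2458 to 4852 CPM in wild type. Most of that sum was the lipogenic genes Scd1, which was called higher and averaged 5025 CPM in knockout and 1952 CPM in wild type, and Fasn, which averaged 1137 CPM in knockout and 349 CPM in wild type and did not pass. Of the 10 sebaceous markers 4 lay below 0, with Elovl3 at -1.54, Far2 at -0.17, Mgst1 at -0.15 and Soat1 at -0.05, none of them called. Their part in the collagen results was not tested.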

How the data were processed

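RNA of 8 back skin samples was sequenced. The submitters' processing notes name GSNAP, the mm10 build and featureCounts 1.6.2. The deposited table holds raw counts and the exon length of every gene. The labels' protocols name both a SMART and a directional library kit, and the strand setting is not given in the sources used here. Symbols were matched to gene IDs with a reference table of gene names (99.3% of genes), and 92 spike-in rows with 8 counts in all were left out.

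From the deposited counts, edgeR 4.0.16 (R 4.3.3) fitted genotype alone across the 8 libraries, after filterByExpr, with TMM scaling and the robust quasi-likelihood test, adjusted by Benjamini-Hochberg over 19099 genes. SE is derived from the F statistic, and CPM uses TMM-scaled library sizes. Per-library values were compared with two-sided exact permutation tests over 70 assignments. Chain ratios needed 10 counts of both chains in every library. Wilson intervals cover counting error only. All replicate pairs differed by more than sampling noise (smallest chi-square over its degrees of freedom, 5.80).

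Alternatives were RLE, upper-quartile and no composition scaling, no filter, a mean of at least 50 counts, DESeq2 1.42.0, limma 3.58.1 voom with quality weights, an adipocyte marker covariate, and each library left out. Named in full were called collagens and, per class, the most abundant and the 3 with the smallest p; per pathway list, called members and the 2 with the smallest p. Col1a1, Col1a2, Col5a1, Col4a1, Lox, Ctsk, Mmp8 and Pepd are given beyond that rule. The members and lists were chosen with earlier results of these data known. Promoter sequences are RefSeq's (GRCm38.p6).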

Additional observations from a re-analysis of the deposited data

Results flagged for a closer look

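In 4 of 84 groups of 4 libraries, 1 library lay far from the others by Dixon's test at the 95% level, and chance marks about 1 in 20 groups. Col8a2 was lowest in knockout replicate 1 at 17.1 CPM, where the other knockout libraries had 22.7 to 23.4 CPM. Col11a1 was lowest in knockout replicate 2 at 6.37 CPM, where the other knockout libraries had 9.58 to 9.69 CPM. Col12a1 was lowest in wild-type replicate 2 at 55.5 CPM, where the other wild-type libraries had 80.4 to 84.1 CPM. The log2 ratio of Col4a3 to Col4a4 was lowest in wild-type replicate 2 at -2.2, where the other wild-type libraries had -1.21 to -1.13.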

How the results depend on the processing

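edgeR called 0 collagens higher and 2 lower, and the counts were the same under RLE, upper-quartile and total-count scaling and with a mean of at least 50 counts. DESeq2 called 1 collagen higher, limma voom called 4 lower, and the adipocyte covariate left 0 lower. Leaving out 1 library gave 0 to 1 higher and 0 to 4 lower. Pathway genes (2 higher, 2 lower) became 5 and 5 with DESeq2, 13 and 7 with limma voom, 0 and 0 with the covariate, and 0 to 8 and 0 to 3 with 1 library left out. All genes (136 higher, 134 lower) became 234 and 268 without the filter, 595 and 590 with DESeq2, 1174 and 1361 with limma voom, 0 and 0 with the covariate, and 9 to 679 and 2 to 646 with 1 library left out, lowest without knockout replicate 2 and highest without wild-type replicate 3. The cause was not tested.

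Signs turned only in values that had not passed. The share of counts on collagens, knockout minus wild type, was 0.067 percentage points without Col1a1, Col1a2 and Col3a1, and lay between -0.479 and 0.136 with 1 library left out. Col16a1 was -0.0261 with limma voom and -0.0464 with the covariate, and Col17a1 was 0.101 with limma voom. With the covariate Col6a1, Col6a2 and Col6a5 were -0.36, -0.38 and -0.59. With 1 library left out the log2 fold changes ranged from -0.057 to 0.0997 for Col16a1, from -0.0973 to 0.0676 for Col17a1, from -0.31 to 0.0038 for Col1a1, from -0.18 to 0.074 for Col1a2, from -0.23 to 0.0919 for Col3a1, from -0.0116 to 0.39 for Col6a1 and from -0.0011 to 0.41 for Col6a2. Differences in chain ratio ranged from -0.0372 to 0.00018 for Col4a1 to Col4a2 and from -0.22 to 0.13 for Col11a1 to Col11a2, which was -0.0028 with a prior count of 5. The ratio of Col9a3 to Col9a2 was not computed, since Col9a2 was under 10 counts in some libraries. No paired analysis was possible because the replicate numbers follow only the order of the samples. Values of genes with few counts, such as the other type IX genes, were limited by those counts. Whether depth or low expression set them was not tested.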
